A study of Mus musculus with 272 samples.

Results

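The genes described here are Btg4 and 9 subunits of the CCR4-NOT complex: Cnot1, Cnot2, Cnot3, Cnot4, Cnot6, Cnot6l, Cnot7, Cnot8 and Cnot10. They were taken by name, as the deadenylase subunits and their adaptor, and all 10 were among the 15854 gene symbols of the deposited table. Mouse oocytes and preimplantation embryos were sampled at 8 stages. They were the GV oocyte (germinal vesicle, arrested before meiotic maturation), the MII oocyte (arrested at the second meiotic metaphase), the zygote, the 2-cell, 4-cell and 8-cell embryo, the morula and the blastocyst. Each stage had 4 transcriptome libraries, each made from a pool of 20 oocytes or embryos. Each stage also had 3 sucrose gradients. Each gradient was loaded with a lysate of about 100 oocytes or embryos made in cycloheximide, which holds ribosomes on their transcripts, and was collected as 10 fractions that were sequenced one by one. No stage carried a further treatment or a transgene in the labels, and strain, age and mating were not given in the sources used here. All libraries are of pooled whole oocytes or embryos and were made from polyadenylated RNA, so the number of transcripts, the length of their tails and the number of cells cannot be told apart.

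CCR4-NOT is the main enzyme complex that shortens the poly(A) tails of cytoplasmic messenger RNAs, a step that usually precedes their decay. Cnot1 is the scaffold on which the other subunits assemble, and the complex holds exonucleases of both types, Cnot6 or its paralogue Cnot6l and Cnot7 or its paralogue Cnot8. Btg4 is a member of the BTG/TOB family that binds Cnot7 and Cnot8, and in mouse oocytes it is known as the adaptor through which maternal messenger RNAs are cleared at meiotic maturation. Many messenger RNAs stored in the oocyte carry cytoplasmic polyadenylation elements near their 3′ end, through which their tails are extended and their translation starts when meiosis resumes.

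Such elements were looked for in the 10 genes because they are the sequences through which a stored messenger RNA can gain ribosomes at maturation, which is what the gradients read. The letters TTTTAT and TTTTAAT were searched on the transcript strand in the last 150 bases of the GENCODE protein-coding transcripts of the mouse reference that end within 60 bases of a polyadenylation hexamer (AATAAA or ATTAAA). The motifs cannot start at the same base. Of the 23 transcripts of these genes that met this, 6 held at least 1 motif (26.1%), against 6708 of 29697 transcripts of all genes (22.6%). The sites below are written 5′ to 3′ with the motif, and the hexamer where it falls inside the stretch, in capitals. The motif of Btg4 starts 125 bases from the transcript's end in the first line and 96 in the next, that of Cnot7 starts 113 and then 20 bases from the end, that of Cnot8 38 bases and that of Cnot3 19 bases.
Btg4-203: agctacTTTTAATtcttatttaactttatg
Btg4-203: gtaaaaTTTTATgaacactagtgaatatag
Cnot7-211: ttactgTTTTATtttataaacatatttatg
Cnot7-211: ggtacaTTTTATatcAATAAAaatac
Cnot8-201: ttatgtTTTTAATtttgtaaAATAAAgatt
Cnot3-201: aaatagTTTTATatgacggctggca
The annotation marks the 3′ end of the Cnot8 transcript as not found, and in Cnot3 the motif follows the hexamer. A match describes the letters of an annotated transcript, and which transcript the oocytes held was not tested. Cnot8-202 holds the same site as Cnot8-201. Cnot3-206 holds the motif of Cnot3-201 but ends sooner, so that it starts 10 bases from the end. Cnot7-211 holds a further TTTTAT 108 bases from its end, inside the stretch shown first. It starts on the last capital letter there and is otherwise in lower case. The transcripts of Cnot2, Cnot4, Cnot6, Cnot6l and Cnot10 in this set had no match, nor had Btg4-202 and the other transcripts of Cnot7, and Cnot1 had no transcript in the set.

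Values are CPM, a gene's reads scaled to a fixed library size, with no scaling to transcript length, so levels are compared between stages and not between genes. Transcriptomes held 11.2 to 24.3 M reads (M for mega), fractions 2 to 10 held 0.996 to 43.2 M, and fraction 1 held 0.0102 to 11.5 M. Marker genes followed the labels: 6 oocyte markers summed to 13535 to 15616 CPM in the GV libraries, and 5 trophectoderm markers summed to 2084 to 2728 CPM in the blastocyst libraries. Of 8 cumulus and granulosa markers 2 were in the table, with a summed level of 33.8 to 41.5 CPM in the GV, 59.3 to 68.6 CPM in the MII, 47.9 to 58.6 CPM in the zygote and 10.0 to 16.8 CPM in the 2-cell libraries and Amhr2 at 0 in the GV, MII and zygote libraries. In those 3 stages the sum is therefore the level of 1 gene. It was 16.9 to 32.7 CPM in the 4-cell, 15.1 to 25.6 CPM in the 8-cell, 6.02 to 14.1 CPM in the morula and 13.3 to 19.8 CPM in the blastocyst libraries. The sum was higher in the MII than in the GV libraries, as were several of the genes below, and its part in the results was not tested. A gene was called when the change on the log2(CPM + 1) scale was at least 1 and limma's p, adjusted over all genes tested (Benjamini-Hochberg), was below 0.05. Nothing in the labels says that pools came from separate animals, so each p measures the spread between these samples.

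In the transcriptomes Btg4 was abundant from the GV oocyte to the 2-cell embryo and nearly gone from the 4-cell embryo on. The 4 GV libraries read 6376, 6593, 6627 and 6953 CPM, and the 4 MII libraries read 10018, 11245, 11601 and 11788 CPM. The zygotes read 13424, 14367, 14422 and 14537 CPM, and the 2-cell embryos 10372, 10379, 11486 and 13257 CPM. Every MII library lay above every GV library and every zygote above every MII library, and the 2-cell embryos overlapped the MII oocytes. The 4-cell embryos then read 9.54, 16.0, 22.7 and 23.2 CPM, and the level went on down to 0.686 to 2.62 CPM in the blastocysts. From the 2-cell to the 4-cell embryo Btg4 fell by 9.30 on the log2 scale (SE 0.21, limma adjusted p = 3.27e-29). A further step of −1.07 to the 8-cell embryo was called too (limma adjusted p = 0.00144). It was not called after quantile normalization (−0.88), with only the compared stages fitted (adjusted p = 0.125, with a range of 0.000105 to 0.125 over its alternatives), or without 4-cell replicate C (−0.94), 4-cell replicate D (−0.92) or 8-cell replicate B (−0.9987).

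**Figure D1:**
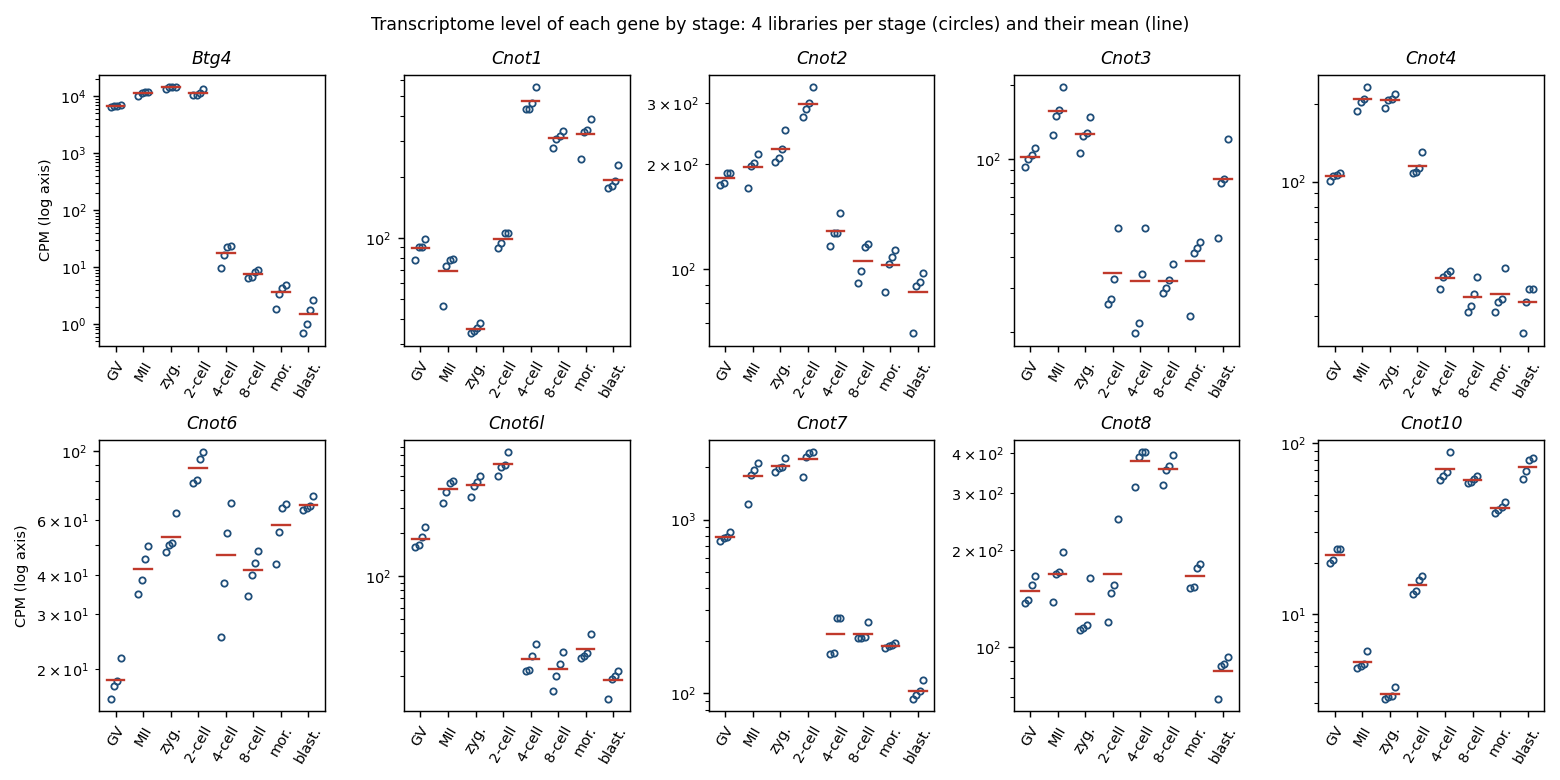
Transcriptome level of the 10 genes in CPM on a log axis, by stage, with 1 circle per library (4 per stage) and a line at the mean. Btg4, Cnot6l and Cnot7 are high up to the 2-cell embryo and low from the 4-cell embryo on, and Cnot1, Cnot8 and Cnot10 are higher in the 4-cell than in the 2-cell embryo.

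The exonuclease genes of the Cnot6 type both rose at maturation. Cnot6l, the paralogue known for its abundance in mouse oocytes, read 160, 165, 187 and 220 CPM in the GV libraries and 323, 385, 445 and 460 CPM in the MII libraries, a change of 1.13 (SE 0.18, limma adjusted p = 1.43e-06). It reached 500.1, 582, 602 and 735 CPM in the 2-cell embryos and read 21.6, 22.0, 27.8 and 33.5 CPM in the 4-cell embryos. All 4-cell libraries lay far below all 2-cell libraries, and Cnot6l fell by 4.48 on the log2 scale (SE 0.18, limma adjusted p = 2.74e-22).

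Cnot6 read 16.1, 17.6, 18.2 and 21.7 CPM in the GV libraries and 34.7, 38.6, 45.2 and 49.6 CPM in the MII libraries, a change of 1.14 (SE 0.20, limma adjusted p = 5.33e-06). It was highest in the 2-cell embryo, at 78.7 to 99.1 CPM, and read 25.3, 37.8, 54.4 and 68.1 CPM in the 4-cell embryo, where the libraries spread more than at any other stage. In the blastocyst Cnot6 read 64.5 to 71.7 CPM, above its GV level, and Cnot6l read 13.9 to 21.9 CPM, below its GV level. The ratio of Cnot6l to Cnot6 within a transcriptome library had a median of 9.52 in the GV oocyte, 9.65 in the MII oocyte, 8.16 in the zygote and 6.82 in the 2-cell embryo. Its median was 0.614 in the 4-cell embryo and 0.285 in the blastocyst, and no library up to the 2-cell stage (lowest 6.36) overlapped a later one (highest 0.870). The gradients did not show the same step on both sides. On the light side the ratio was 23.6 to 34.6 in the 2-cell, 11.9 to 21.2 in the 4-cell and 5.03 to 27.7 in the 8-cell embryo, and 0.198 to 0.451 in the morula. On the heavy side the 4-cell gradients ran from 0.00631 to 143, and the light side of the 4-cell gradients held 118, 18 and 19 reads of Cnot6. In the 2-cell gradients the light side held 77, 62 and 14 such reads, and in the 8-cell gradients 259, 44 and 12. The light side includes fraction 1, which held 0.141, 0.347 and 0.282 M reads in the 4-cell gradients. Leaving it out moved the heavy minus light log2 difference of Cnot6l in the 4-cell embryo from −2.12 to −0.03. Which isoforms were present at each stage was not tested.

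Of the Cnot7 type, Cnot7 fell and Cnot8 rose in the transcriptomes from the 2-cell to the 4-cell embryo. Cnot7 read 747, 777, 793 and 851 CPM in the GV libraries and 1237, 1817, 1927 and 2124 CPM in the MII libraries, a change of 1.14 (SE 0.15, limma adjusted p = 4.68e-08). The change was 0.9998 and so just under the threshold after quantile normalization. From 1753, 2302, 2434 and 2448 CPM in the 2-cell embryos it went to 167, 169, 270.0 and 270.6 CPM in the 4-cell embryos. It fell by 3.37 on the log2 scale there (SE 0.15, limma adjusted p = 6.12e-21), with no overlap. Cnot8 stood at 112.6 to 197.8 CPM from the GV oocyte to the zygote, and read 119, 147, 155 and 250.5 CPM in the 2-cell embryos and 313, 390, 403 and 403 CPM in the 4-cell embryos. Its rise from the 2-cell to the 4-cell embryo was 1.21 (SE 0.16, limma adjusted p = 2.05e-08). It was 0.85 after quantile normalization and 0.94 with DESeq2, both under the threshold of 1. At the morula Cnot8 fell by 1.11 (SE 0.16, limma adjusted p = 2.53e-06), to 153, 153, 175 and 181 CPM, and by 0.97 after quantile normalization.

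**Figure D2:**
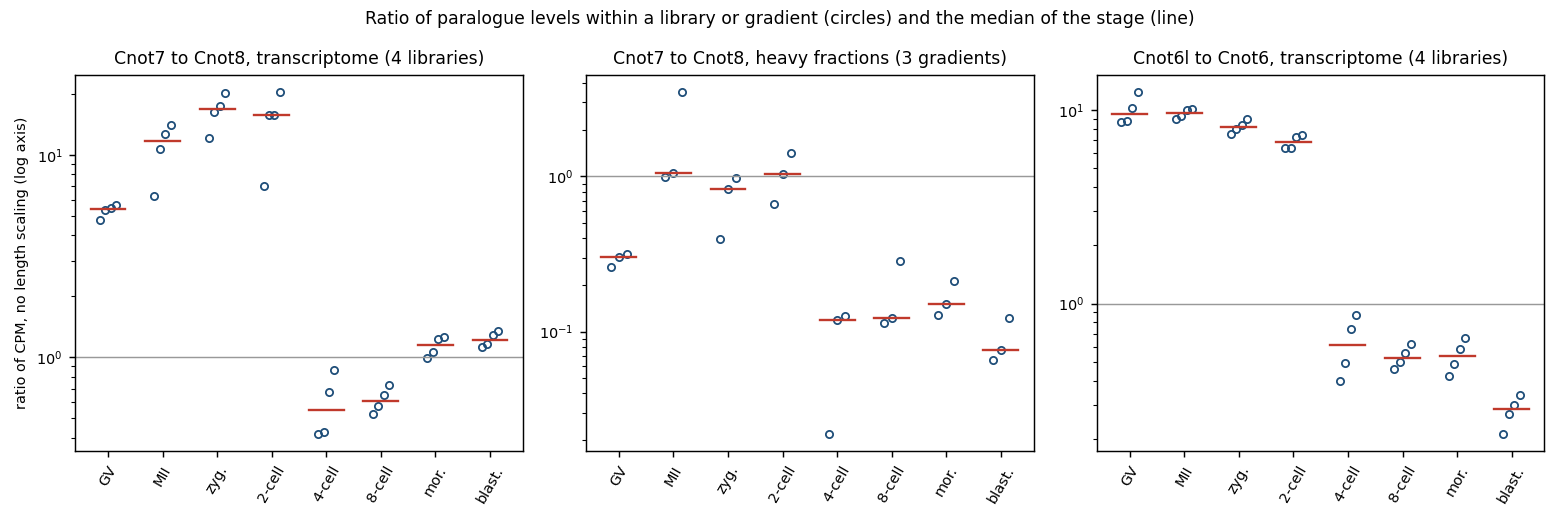
Ratio of the CPM of Cnot7 to Cnot8 in each transcriptome library and in the heavy fractions of each gradient, and of Cnot6l to Cnot6 in each transcriptome library, by stage on log axes, with a line at the stage median. The transcriptome ratio of Cnot7 to Cnot8 has medians of 5.41 in the GV oocyte, 15.7 in the 2-cell embryo and 0.549 in the 4-cell embryo, and that of Cnot6l to Cnot6 drops between the same stages.

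The ratio of Cnot7 to Cnot8 within a library had a median of 5.41 in the GV oocyte (4.78 to 5.67), 11.6 in the MII oocyte (6.25 to 14.0) and 16.8 in the zygote (12.1 to 20.2). It was 15.7 in the 2-cell embryo (up to 20.5) and 0.549 in the 4-cell embryo (0.418 to 0.862), and it was 1.15 in the morula and 1.22 in the blastocyst. The ratios of all MII libraries lay above those of all GV libraries, and the ratios of all 2-cell libraries lay above those of all 4-cell libraries.

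The scaffold gene Cnot1 ran the other way from Btg4. Its libraries read 78.1, 90.4, 90.7 and 98.9 CPM in the GV oocyte, 46.4, 73.3, 78.3 and 78.5 CPM in the MII oocyte and 34.0, 34.7, 36.2 and 38.1 CPM in the zygote. It then rose at both of the next steps, to 89.4, 94.3, 106 and 106 CPM in the 2-cell embryo and to 434, 435, 462 and 556 CPM in the 4-cell embryo. The first rise was 1.44 (SE 0.15, limma adjusted p = 1.57e-10) and the other 2.24 (SE 0.15, limma adjusted p = 3.75e-16). Reads of Cnot1 are shared in small part with a copy, since 3.8% of the 75-base words of its transcripts also occur in transcripts of Gm6158. The share was 5.9% for Cnot8 (with Gm18860) and 5.9% for Cnot3 (with Gm9207 and Mir3572). The other genes of the list shared no such word.

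Cnot10, which joins the complex at the other end of Cnot1, had a deeper trough. It read 19.8, 20.7, 23.9 and 24.1 CPM in the GV libraries, 4.86, 4.97, 5.13 and 6.09 CPM in the MII libraries and 3.20, 3.28, 3.33 and 3.75 CPM in the zygotes. It fell by 1.88 from the GV to the MII oocyte (SE 0.14, limma adjusted p = 8.31e-14). It then rose by 1.85 to 13.2, 13.7, 15.8 and 16.7 CPM in the 2-cell embryos (limma adjusted p = 1.8e-13). The next rise was 2.16, to 60.5, 64.5, 67.6 and 88.4 CPM in the 4-cell embryos (limma adjusted p = 5.91e-16). Each of these stages was separate from the one before it in all 4 libraries.

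Cnot2 and Cnot3, which form the module that docks regulators, moved at different steps. Cnot2 read 175 to 189 CPM in the GV libraries, 273, 287, 300.1 and 333 CPM in the 2-cell libraries and 116, 127, 127 and 145 CPM in the 4-cell embryos, a last step of −1.21 (SE 0.13, limma adjusted p = 1.17e-10). Cnot3 read 106, 124, 127 and 147 CPM in the zygotes and 25.8, 27.0, 32.7 and 52.4 CPM in the 2-cell embryos, a step of −1.88 (SE 0.25, limma adjusted p = 6.59e-08). From the morula (23.2, 41.5, 43.8 and 46.2 CPM) to the blastocyst (47.9, 80.3, 83.4 and 121 CPM) Cnot3 rose by 1.06 (limma adjusted p = 6.57e-04). That call was lost in 5 of its 15 alternatives: after quantile normalization (0.91), with edgeR (0.83) and DESeq2 (0.88), without morula replicate B (0.84) and without blastocyst replicate D (0.86). Cnot4, a ubiquitin ligase that binds the complex, read 108, 109, 113 and 130 CPM in the 2-cell embryos and 38.2, 42.7, 43.8 and 45.0 CPM in the 4-cell embryos, a step of −1.42 (SE 0.14, limma adjusted p = 1.08e-11).

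Between the GV and MII oocyte 3 of the 10 genes rose (Cnot6, Cnot6l, Cnot7) and 1 fell (Cnot10), with a median change of 0.67, where 9.11% of all 14642 genes tested were called higher, 25.3% were called lower and the median of all genes was −0.11. Btg4 (0.75) and Cnot4 (0.98) passed limma's adjusted p but not the change of 1, and both passed it with edgeR (1.07 and 1.31) and DESeq2 (1.20 and 1.44). From the MII oocyte to the zygote no gene of the 10 was called with limma, edgeR or DESeq2, 3 had an unadjusted limma p under 0.05, and 10.3% of all genes were called. From the zygote to the 2-cell embryo 2 rose (Cnot1, Cnot10) and 1 fell (Cnot3), against 25.2% of all genes called higher and 8.71% called lower.

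From the 2-cell to the 4-cell embryo 3 rose (Cnot1, Cnot8, Cnot10) and 5 fell (Btg4, Cnot2, Cnot4, Cnot6l, Cnot7), with a median of −1.10 against 0.02 for all genes. The background at this step was high, with 31.8% of all genes called higher and 32.9% called lower. At later steps 1 gene each was called: Btg4 lower at the 8-cell embryo (2.14% of all genes called lower), Cnot8 lower at the morula (3.7%) and Cnot3 higher at the blastocyst (18.8% called higher). Quantile normalization moved the median of all genes from −0.11 to 0.16 between the GV and MII oocyte, from 0.37 to −0.08 between the zygote and the 2-cell embryo, and from 0.02 to 0.22 between the 2-cell and the 4-cell embryo. Among all genes called, the share that was higher depended on the scaling: between the GV and MII oocyte it was 26.4% with limma, 55.6% after quantile normalization, 41.5% with edgeR and 47.0% with DESeq2. From the zygote to the 2-cell embryo it was 74.3% and 46.4% after quantile normalization, and at the 3 later steps 17.4%, 68.9% and 70.2% against 49.8%, 52.0% and 50.8%. Among the calls that limma did not make were lower levels of Cnot6 in the 4-cell than in the 2-cell embryo (−1.22 after quantile normalization, −1.06 with edgeR and −1.17 with DESeq2) and of Cnot4 in the 2-cell embryo than in the zygote (−1.17 with edgeR and −1.24 with DESeq2). In the blastocyst edgeR called Btg4, Cnot1, Cnot7 and Cnot8 lower than in the morula. At that step it called 4592 of 14642 genes, and 49.8% of those called were higher. From the 2-cell to the 4-cell embryo quantile normalization, edgeR and DESeq2 called 9508, 10210 and 10282 genes (54.1%, 47.1% and 45.5% of them higher). From the zygote to the 2-cell embryo edgeR and DESeq2 called 5864 and 6009 genes (66.6% and 64.3% of them higher).

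In the gradients, transcripts that carry more ribosomes sediment further, and by convention the higher fraction numbers were taken as the heavier side. A gene's level on the heavy side was the mean CPM of fractions 6 to 10 of a gradient, and that on the light side the mean of fractions 1 to 5. Each fraction was scaled to its own reads, so these are shares within a fraction and not amounts of RNA. Fractions of cleavage embryos often held no read of a gene: over the 10 genes and fractions 2 to 10, 1.48% of values were 0 in the GV oocyte, 4.81% in the MII oocyte and 4.07% in the zygote, against 17.8% in the 2-cell, 27.8% in the 4-cell and 18.9% in the 8-cell embryo. A fit over all stages gives every stage the same spread, so calls within a single stage are also given from that stage alone. With 3 gradients a stage, a p that misses the threshold does not show that the sides were alike.

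Btg4 transcripts lay further toward the heavy end in the MII and zygote gradients than in the GV gradients. In the GV gradients the mean over the 3 gradients was highest in fraction 5 (3692 CPM) and 2861 CPM in fraction 10. In the MII oocyte it climbed from 334 CPM in fraction 1 to 3186 CPM in fraction 10, and in the 2-cell embryo to 5389 CPM in fraction 10. The heavy minus light difference was 0.38, 0.75 and 0.51 in the 3 GV gradients, 1.34, 1.44 and 1.63 in the MII gradients, 1.76, 2.11 and 2.89 in the zygote gradients and 1.43, 2.62 and 1.23 in the 2-cell gradients. All MII values lay above all GV values and all zygote values above all MII values. The mean difference of 2.26 in the zygote missed the threshold in the fit over all stages (limma adjusted p = 0.0842). It passed with the gradient as a block (0.031) and in the zygote alone (0.0103), with a range of 0.0103 to 0.594 over its alternatives. That of 1.76 in the 2-cell embryo passed with the gradient as a block (limma adjusted p = 0.0369) and not without it (0.0898), with a range of 0.0323 to 0.355.

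**Figure D3:**
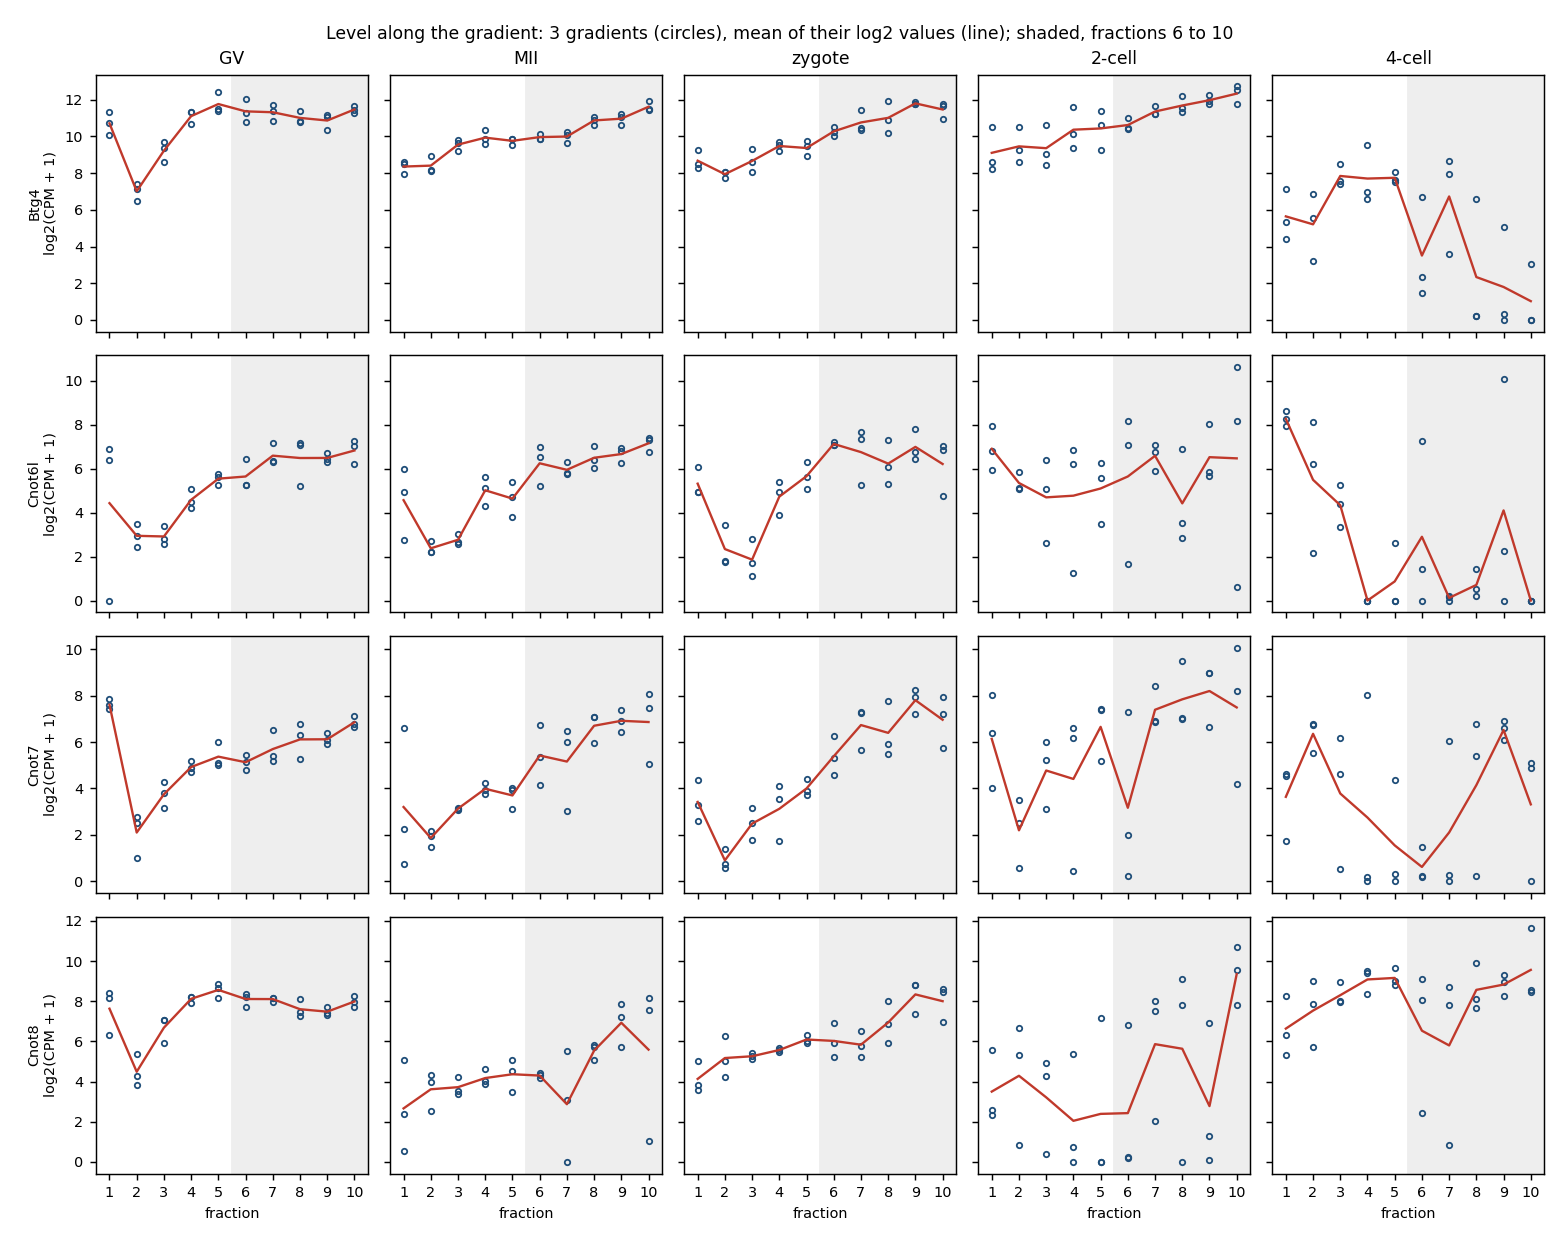
Level of Btg4, Cnot6l, Cnot7 and Cnot8 along fractions 1 to 10 in the GV oocyte, MII oocyte, zygote, 2-cell and 4-cell embryo, as log2(CPM + 1) with 1 circle per gradient (3 per stage), a line at their mean and fractions 6 to 10 shaded. Btg4 and Cnot8 stay near 1 level from fraction 4 to fraction 10 of the GV gradients and climb toward fraction 10 in the MII oocyte and zygote, and the 4-cell circles are scattered down to 0.

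In the 4-cell embryo what was left of Btg4 lay on the light side. The heavy levels were 80.4, 3.09 and 96.2 CPM against light levels of 274, 130 and 138 CPM, a mean difference of −2.42 (SE 0.73, limma adjusted p = 0.0176). Without gradient B the difference was −1.13 (adjusted p = 0.281, with a range of 0.00453 to 0.62), so that call rested on 1 gradient. Heavy levels in the 2-cell embryo had been 2726, 3216 and 4359 CPM, so Btg4 fell by 6.72 on the heavy side between these stages (SE 0.83, limma adjusted p = 1.36e-06). It dropped again from the 8-cell embryo (10.7, 61.1 and 64.0 CPM) to the morula (0.0207, 0.0580 and 1.41 CPM, from 4, 12 and 272 reads), by 4.72 on the log2 scale (limma adjusted p = 7.57e-04, and 0.0515 with only these stages fitted, the highest over its alternatives).

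Cnot7 lay on the heavy side from the MII oocyte to the 2-cell embryo. Its light levels were 54.5, 48.7 and 67.8 CPM in the GV gradients, 7.49, 7.57 and 28.0 CPM in the MII gradients and 11.2, 4.54 and 9.55 CPM in the zygote gradients. Its heavy levels were 69.7, 82.8 and 57.4 CPM, then 89.7, 115 and 94.5 CPM, then 126, 85.6 and 179 CPM. The light levels of the GV gradients lay above all later ones up to the zygote, and the heavy levels of the GV gradients below them. The heavy minus light difference was 2.97 in the MII oocyte (SE 0.59, limma adjusted p = 0.00149), 3.82 in the zygote (SE 0.59, limma adjusted p = 6.94e-05) and 1.96 in the 2-cell embryo (limma adjusted p = 0.0161). The zygote call held in all 10 of its alternatives (limma adjusted p 1.19e-05 to 0.00937). The MII call was lost without MII replicate B (2.57, adjusted p = 0.0761) and the 2-cell call with that stage alone and without 2-cell gradient B or C (0.00499 to 0.11 over 10 alternatives).

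The GV value of Cnot7 turned on fraction 1, which held 0.0102, 0.0231 and 7.66 M reads in the 3 GV gradients, so that 1 read counted as 95.5 CPM in the shallowest. Cnot7 averaged 196 CPM in fraction 1 of the GV gradients and 3.86, 13.1, 29.6 and 42.5 CPM in fractions 2 to 5. With fraction 1 in the light side the GV difference was 0.29, and without it 1.61 (limma adjusted p = 0.357), while the MII and zygote differences were 3.26 and 3.91 without it. In the blastocyst Cnot7 lay on the light side, with differences of −1.40, −1.97 and −2.36. Their mean of −1.91 was called with the gradient as a block (limma adjusted p = 0.0442) and not without it (0.076), with a range of 0.00166 to 0.522.

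Cnot8 lay on the heavy side at the same stages, after lower levels on both sides in the MII oocyte. In the GV gradients its light levels were 179, 243 and 195 CPM and its heavy levels 219, 274 and 220 CPM. In the MII gradients the light levels were 10.9, 16.7 and 18.7 CPM and the heavy levels 25.5, 109 and 95.1 CPM, so both sides were below every GV value while the transcriptome libraries of both stages overlapped. The heavy side fell by 1.86 (SE 0.48, limma adjusted p = 0.0283), a call lost in 7 of its 13 alternatives (0.0192 to 0.285). Among these were each removal of a GV gradient and that of MII gradient A (−1.20). Along the MII gradient Cnot8 averaged 12.5 to 21.7 CPM in fractions 1 to 7 and 143 and 157 CPM in fractions 9 and 10.

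The heavy minus light difference of Cnot8 was 2.03 in the MII oocyte (SE 0.44, limma adjusted p = 0.00433), 2.08 in the zygote (limma adjusted p = 0.00413) and 3.30 in the 2-cell embryo (limma adjusted p = 1.1e-06). The single gradients gave 1.16, 2.64 and 2.28, then 1.97, 2.18 and 2.10, then 4.04, 3.12 and 2.73, all above the GV values of 0.29, 0.17 and 0.17. These calls were lost in 3, 2 and 1 of their 10 alternatives, with highest limma adjusted p of 0.126, 0.071 and 0.0824. The removals that ended a call were of MII gradients B and C and zygote gradients B and C. In the morula the difference of 1.19 was called with the gradient as a block (limma adjusted p = 0.0405) and not without it (0.126), with a range of 0.0405 to 0.633. In the heavy fractions the ratio of Cnot7 to Cnot8 had a median of 0.302 in the GV oocyte, 1.06 in the MII oocyte, 0.832 in the zygote, 1.04 in the 2-cell embryo and 0.119 in the 4-cell embryo. The zygote gradients ran from 0.398 to 0.971, below every MII gradient. No GV gradient (highest 0.319) overlapped an MII gradient (lowest 0.994).

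Cnot6l lay on the heavy side in each gradient up to the 2-cell embryo. The differences were 2.18, 1.76 and 1.02 in the GV oocyte, 1.97 to 2.39 in the MII oocyte and 1.92 to 2.22 in the zygote. They were called from the stage alone in the MII oocyte (2.19, limma adjusted p = 0.00839) and the zygote (2.11, limma adjusted p = 0.00802). In the fit over all stages they were not called (0.246 and 0.273), with ranges up to 0.629 and 0.769 over their alternatives. In the 2-cell embryo the differences were 2.07, 0.26 and 1.70. Their mean of 1.35 was not called in that fit (limma adjusted p = 0.346) or from the stage alone (0.412). In the 8-cell embryo the heavy levels were 0, 1.90 and 4.66 CPM against light levels of 36.6, 58.2 and 35.1 CPM, a difference of −4.09 (SE 0.92, limma adjusted p = 0.00198; 0.0978 from that stage alone, the highest over its alternatives). Cnot6 was sparse in the gradients, with 15 of 27 libraries of 2-cell fractions 2 to 10 at 0 reads and 16 of 27 in the 4-cell embryo. Its 2-cell differences were 3.24, 2.06 and 2.75, a mean of 2.69 (limma adjusted p = 0.0798) that was not called. It was called at 3.23 without fraction 1 (limma adjusted p = 0.0355) and at 2.99 with fractions 7 to 10 as heavy (0.0491), with a range of 0.0355 to 0.248.

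On the heavy side Cnot6l went from 365, 61.5 and 197 CPM in the 2-cell gradients to 217, 31.1 and 0.116 CPM in the 4-cell gradients. These groups overlapped, and the change of −3.06 (SE 1.19, limma adjusted p = 0.0485) was lost in 9 of 13 alternatives. With the replicate letter as a block its limma adjusted p was 0.0592. Without 4-cell gradient C it was −0.99 (adjusted p = 0.408, with a range of 0.000912 to 0.828), and without 2-cell gradient A, 2-cell gradient C or 4-cell gradient B it was not called either. With edgeR on summed reads it was −0.60.

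Cnot4 and Cnot2 both fell on the heavy side at the 4-cell stage, Cnot2 with low levels on the light side too. Cnot4 read 96.2, 23.9 and 174 CPM on the heavy side of the 2-cell gradients and 0.0254, 0.411 and 0.330 CPM in the 4-cell gradients, the latter from 1, 21 and 24 reads. It fell by 5.92 (SE 0.66, limma adjusted p = 3.54e-07). The light levels of the 4-cell gradients were 20.4, 16.1 and 22.7 CPM, a heavy minus light difference of −4.05 (SE 0.71, limma adjusted p = 9.39e-05; 0.338 from that stage alone, the highest over its alternatives). Cnot2 read 269, 81.5 and 191 CPM in the 2-cell heavy fractions and 0.0815 to 0.504 CPM in the 4-cell ones, from 3, 7 and 35 reads, and fell by 7.06 (SE 0.59, limma adjusted p = 7.89e-09). Its light levels were 137, 134 and 102 CPM in the 2-cell gradients and 5.72, 8.66 and 0 CPM in the 4-cell gradients, the latter from 9, 156 and 0 reads. The heavy minus light difference of Cnot2 in the 4-cell embryo was −2.64, −3.13 and 0.59 in the single gradients, and its mean of −1.73 was not called (limma adjusted p = 0.0745). The 4-cell transcriptomes held Cnot2 at 116 to 145 CPM and Cnot4 at 38.2 to 45.0 CPM. Of the 27 libraries of 4-cell fractions 2 to 10, 17 had no read of Cnot4 and 13 no read of Cnot2.

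In the 8-cell embryo the heavy levels of Cnot2 were 19.5, 17.4 and 9.96 CPM, a rise of 3.72 (SE 0.59, limma adjusted p = 4.59e-04; 0.392 with only these stages fitted). Cnot3 fell on the heavy side between the same stages by 2.72, from 75.9, 50.1 and 56.3 CPM to 1.52, 13.9 and 20.2 CPM (limma adjusted p = 0.0149; 0.628 with only these stages fitted). The step was −1.78 without 8-cell gradient A (adjusted p = 0.0699, with a range of 0.00494 to 0.628). In the zygote Cnot2 lay on the heavy side with differences of 1.90, 2.84 and 2.39, a mean of 2.38 (SE 0.67, limma adjusted p = 0.0407; 0.0523 with the gradient as a block, with a range of 0.0106 to 0.288), which any removal of a zygote gradient ended. Cnot1 differed by 2.08, 2.46 and 1.89 in the MII gradients, a mean of 2.14 that was called with the gradient as a block (limma adjusted p = 0.0185) and not without it (0.11), with a range of 0.0185 to 0.493. Cnot10 was not called in any gradient comparison, and at every stage its 3 gradients did not all point to the same side.

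**Figure D4:**
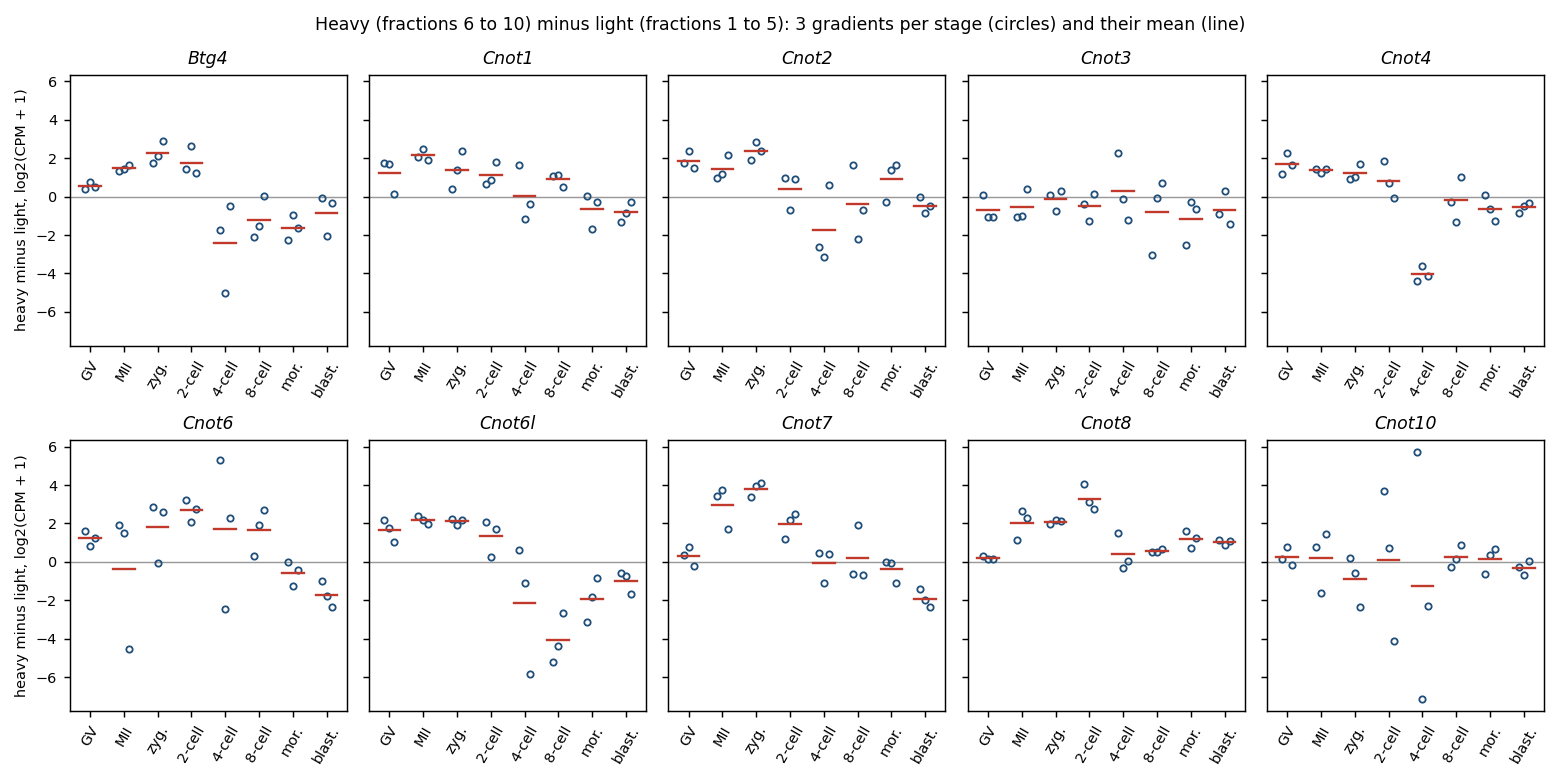
Heavy minus light difference of log2(CPM + 1) for the 10 genes by stage, with 1 circle per gradient (3 per stage) and a line at the mean; 0 marks equal levels. Btg4, Cnot1, Cnot6l, Cnot7 and Cnot8 lie above 0 in every MII, zygote and 2-cell gradient. Cnot4 lies between −3.60 and −4.38 in the 4-cell gradients, and Cnot6, Cnot6l and Cnot10 spread widely in the 4-cell embryo.

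Counted over the heavy side, 1 gene of the 10 was called lower between the GV and MII oocyte (3.22% of 14524 genes called lower), none at the next 2 steps up to the 2-cell embryo (1.49% and 20.8% called in either direction) and 5 from the 2-cell to the 4-cell embryo, all lower (22.3%). Then 1 was higher (5.6%) and 1 lower (0.943%) at the 8-cell embryo, 1 lower at the morula (2.56%) and none at the blastocyst (0.0757%). Where none was called, the genes of the 10 with an unadjusted limma p under 0.05 numbered 1, 0 and 0, and edgeR called 0 in each. Btg4, Cnot2, Cnot4 and Cnot7 kept their call from the 2-cell to the 4-cell embryo in all 13 alternatives, and the other 5 calls on the heavy side were each lost in at least 1. Of all genes called at that step 41.2% were higher, and 51.7% after quantile normalization.

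For heavy against light, 0 of the 10 were called in the GV oocyte (0.0725% of 15172 genes called; 2 of the 10 had an unadjusted p under 0.05), 2 in the MII oocyte (1.71% called on that side), 3 in the zygote (2.14%) and 2 in the 2-cell embryo (6.43%), all on the heavy side. On the light side were 2 in the 4-cell embryo (12.9%) and 1 in the 8-cell embryo (6.62%), and none was called in the morula (5.81%; 3 with an unadjusted p under 0.05) or the blastocyst (2.74%; 2 with one). The median difference of the 10 genes was 0.87 in the GV oocyte, 1.45 in the MII oocyte, 1.94 in the zygote and 1.22 in the 2-cell embryo, against medians of all genes between −0.16 and 0.08, and it was −0.66 in the 4-cell embryo against −0.26. Of all genes called in the 2-cell and 4-cell embryo 35.4% and 20.9% were on the heavy side, and 49.2% and 49.3% after quantile normalization.

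Fitted stage by stage, 6 of the 10 were on the heavy side in the MII oocyte (Btg4, Cnot1, Cnot2, Cnot4, Cnot6l, Cnot7), where 6.51% of all genes were called on that side, and 6 in the zygote (Btg4, Cnot2, Cnot4, Cnot6l, Cnot7, Cnot8; 7.41%). In the blastocyst Cnot8 was called on the heavy side (1.03; 4.98% of all genes) and Cnot6 (−1.71) and Cnot7 (−1.91) on the light side (5.92%). None of the 10 was called in the 8-cell embryo (1.31% called in either direction; 2 with an unadjusted p under 0.05) or the morula (5.75%; 2). In the same limma fits no gene of any kind was called in the GV, 2-cell or 4-cell gradients, although 2605, 2478 and 1428 genes had an unadjusted p under 0.05 (4, 4 and 1 of them among the 10), so the calls in the 2-cell and 4-cell embryo given above rest on the spread shared with the other stages.

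The change of the heavy minus light difference between stages was tested directly. No gene of the 10 was called between the GV and MII oocyte (0.0659% of all genes called; 2 of the 10 with an unadjusted p under 0.05), the MII oocyte and zygote (0.0198%; 0) or the zygote and 2-cell embryo (5.5%; 2). The positions of Btg4, Cnot7 and Cnot8 before cleavage are therefore described by their values and were not called as differences between stages. From the 2-cell to the 4-cell embryo the difference of 4 genes shifted toward the light side (8.75% of all genes called in that direction). These were Btg4 by −4.19 (limma adjusted p = 0.00319), Cnot4 by −4.87 (6.48e-05), Cnot6l by −3.46 (0.04, and 0.0509 with the replicate letter as a block) and Cnot8 by −2.90 (0.00298). In the 4-cell gradients the difference of Cnot8 was 1.49, −0.33 and 0.04, a mean of 0.40 that was not called (limma adjusted p = 0.648). The difference of Cnot4 changed the other way, by 3.87, to the 8-cell embryo (limma adjusted p = 0.00239; 2.54% of all genes called in that direction), from heavy levels of 0.0632 to 2.18 CPM and light levels of 0 to 6.91 CPM, with 18 of 27 libraries at 0 reads. The Cnot6l call was lost in 8 of 13 alternatives, among them without fraction 1 (−1.84, limma adjusted p = 0.241), 2-cell gradient A or C, or 4-cell gradient C (−1.60). None was called at the morula (0.521%; 1) or the blastocyst (0.00659%; 1). With only the compared stages in the fit limma called no gene at any step, and all 5 of these calls were lost (highest adjusted p 0.213 to 0.545). There were 1765 genes at an unadjusted p under 0.05 from the 2-cell to the 4-cell embryo, 4 of them among the 10.

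Several of the 10 genes had lower CPM in the gradients than in the transcriptomes, Cnot7 among them. In the MII oocyte it averaged 59.7 CPM over fractions 2 to 10 against 1776 CPM in the transcriptome, a log2 ratio of −4.87, and 0.105% of 9568 genes had a lower ratio. The ratio was −3.99 in the GV oocyte (0.304% of genes lower), −4.73 in the zygote (0.103%) and −3.62 in the 2-cell embryo (1.88%), and it was −2.28 in the 4-cell embryo (13.2%). Cnot2 in the 4-cell embryo had a lower ratio still, −5.56 (0.145% of genes lower). In the MII oocyte the ratio was −3.05 for Btg4 (3.61% of genes lower), −2.93 for Cnot6 and −2.68 for Cnot6l, and in the zygote it was −3.18 for Btg4 (3.44%). Btg4 had ratios of 2.75 in the 4-cell and 3.16 in the 8-cell embryo. Cnot8 had ratios of 0.55, −1.74, −0.04 and −0.02 from the GV oocyte to the 2-cell embryo. The gradients were loaded with centrifuged lysate, and the transcriptomes were made from whole pools with another protocol, so protocol and biology cannot be told apart in these ratios.

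The genes whose pattern over the 80 stage-by-fraction means was most like that of Btg4 were E330034G19Rik (Pearson r = 0.954), Rfpl4 (0.949) and E330021D16Rik (0.948), among 14295 genes. Those most like Cnot6l were Ncoa2 (0.838), Pld1 (0.818) and Unc13c (0.809), and those most like Cnot7 were Wtap (0.695), Mapk6 (0.677) and Nsd1 (0.662). Among the 10 genes, Btg4 was most like Cnot6l (0.732, rank 799) and Cnot4 (0.657), and its r to Cnot7 was 0.259. The means share libraries and depth, and these values are descriptions.

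Other genes of tail shortening and extension were counted in the transcriptome from lists of 39 genes, of which 38 were tested. Among 7 deadenylases outside the complex, 4 rose between the GV and MII oocyte and none fell. At this step limma called 9.11% of all genes higher and 25.3% lower. The 4 were Pan2 (by 1.48), Pan3 (by 1.48), Noct (by 1.32) and Angel2 (by 1.15). With quantile normalization, edgeR or DESeq2 6 of the 7 rose. These settings called 5812, 6831 and 7279 of 14642 genes, and 55.6%, 41.5% and 47.0% of those called were higher. From the 2-cell to the 4-cell embryo 5 of the 7 fell and none rose, in these settings alike, where 32.9% of all genes were called lower and 31.8% higher. Angel2 fell by 5.74, Angel1 by 2.93, Noct by 2.38, Pan3 by 2.38 and Pan2 by 1.97. Of 5 other BTG/TOB genes, relatives of Btg4, 3 fell at that step, against the same 32.9% of all genes (Tob1 by 1.99, Tob2 by 1.69 and Btg2 by 1.42) and Btg1 rose by 2.60. Cnot9, a further subunit, rose by 1.10 at maturation and by 1.11 at the 4-cell stage with limma; edgeR and DESeq2 did not call that second step and called Cnot11 lower there.

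Among 16 RNA-binding proteins known to bring the complex to transcripts, 7 fell from the 2-cell to the 4-cell embryo (32.9% of all genes called lower), and those that rose included Nanos3 (by 4.41), Tnrc6a (by 2.76) and Ythdf2 (by 2.56). Among those that fell were Pabpn1l, which works with Btg4 in the oocyte, by 4.43 and Cpeb1, which binds the polyadenylation element, by 3.26. Between the GV and MII oocyte 1 rose and 1 fell with limma, which called 9.11% of all genes higher and 25.3% lower. With quantile normalization, edgeR or DESeq2 6 or 7 rose and 0 fell. These settings called 5812, 6831 and 7279 of 14642 genes, and 55.6%, 41.5% and 47.0% of those called were higher. Of 8 genes of tail binding and extension 3 rose and 3 fell at the 4-cell stage, shares near those of all genes (31.8% higher and 32.9% lower), with the oocyte form Pabpc1l at −4.39 and the general form Pabpc1 at 3.71.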

How the data were processed

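The authors deposited 1 table of CPM per gene symbol and library, and the submitters' processing notes name Trim Galore 0.6.7, FastQC, HISAT2 2.2.1, featureCounts 2.0.1, edgeR and build GRCm39, with no role or order; the annotation is not given in the sources used here. In 9 columns repeated symbols push the sum past that of CPM, so their values, as the authors deposited them, are recorded as a signal (CPM before symbols were repeated) and were used as CPM. Of the symbols, 159 had values identical to another's and 1 of each group was kept (15771 left), none a gene of the list. In the deposited columns 100% of values were whole multiples of 1 read (tolerance 0.05 reads), so counts were recovered for 271 of 272 columns. The 2-cell fraction 7 of gradient B, with a step near a rounding step, was left out of count models. On these counts edgeR (4.0.16, TMM) called 6831 genes between the GV and MII oocyte, against 5045 with limma.

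limma (3.58.1, R 4.3.3; lmFit, contrasts, eBayes with trend) was run on log2(CPM + 1) of genes with at least 1 CPM in 4 transcriptomes or 3 gradient means, in 1 fit over all stages for each of 4 families: transcriptomes, heavy fractions, heavy against light, and the change of that difference. The pseudocount of 1 understates the change of low genes. Fits were tested on simulated data. DESeq2 (1.42.0) was an alternative. No pair among 288 pairs of replicate libraries agreed within sampling noise (lowest chi-square per degree of freedom 2.55). Amplified reads carry no molecular identifiers.

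The heavy and light side of a gradient come from the same lysate and so are paired by design; their deviations from the stage means correlated at 0.00776 to 0.253. Column letters of the 2-cell transcriptomes (E to H) differ from the labels (A to D), so those columns were used by stage only. The genes and lists were chosen with earlier results of these data known. All 10 genes are named; partner genes are named from those called (1 is not reported here), and the 3 genes most alike by rank of r. The 3′ sites come from GENCODE transcripts of an older mouse build than the authors used, so no coordinates are given.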

Additional observations from a re-analysis of the deposited data

Results flagged for a closer look

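In 6 of 80 groups of 4 transcriptome libraries 1 library stood apart from the other 3 (chance flags about 1 in 20 groups). They were the lowest Btg4 library of the zygotes (13424 CPM), the lowest Cnot1 library of the MII oocytes (46.4 CPM), the highest Cnot6l library of the morulae (39.4 CPM), the highest Cnot7 library of the 8-cell embryos (257 CPM), the highest Cnot8 library of the zygotes (164 CPM) and the lowest Cnot8 library of the 4-cell embryos (313 CPM).

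The heavy minus light difference changed between stages by the test of that change for 5 results. From the 2-cell to the 4-cell embryo these were Btg4 (−4.19), Cnot4 (−4.87), Cnot6l (−3.46) and Cnot8 (−2.90), and from the 4-cell to the 8-cell embryo Cnot4 (3.87). The 4-cell heavy levels of Cnot4 rest on 1, 21 and 24 reads, and 27.8% of the values of the 10 genes in 4-cell fractions 2 to 10 were 0.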

How the results depend on the processing

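Of 42 calls, 18 held under every alternative and every removal of 1 library or gradient, and 24 were lost at least once: 13 of 18 held in the transcriptome, 4 of 9 on the heavy side, 1 of 10 for heavy against light and 0 of 5 for the change of that difference. A further 32 results were called only under an alternative, and none of these 74 results changed direction in the 930 values computed. The other 216 results were called in no fit with all libraries, and 181 of their 2720 alternative values had the opposite sign; their values stand in the text as descriptions. With only the compared stages fitted the heavy side gave 4 calls in place of 9 and the change of the heavy-light difference 0 in place of 5. Leaving out 1 library or gradient gave 17 to 20 calls in the transcriptome, 7 to 10 on the heavy side, 7 to 15 for heavy against light and 4 to 6 for the change. With the replicate letter as a block the heavy side gave 8 calls and the change 4, and with the gradient as a block heavy against light gave 14; the transcriptome comparisons without 2-cell embryos gave 7 with and without it. Across stages the letters share only a letter (correlations of same-letter deviations −0.178 to 0.169), and beyond the changes given beside the results the block changed no call. Sparse fractions limit what the 2-cell to 8-cell gradients can show.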
